A study of Mus musculus with 6 samples.

Results

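Hox genes encode transcription factors that tell cells where along the body axis they lie. They sit in 4 clusters, Hoxa to Hoxd, and genes with the same number in different clusters are paralogues. Low-numbered genes are switched on first and are active from the hindbrain downwards, whereas high-numbered genes are active only towards the tail and in the limbs. Fibroblasts keep much of the Hox pattern of the place they came from when they are grown in culture, so the Hox genes serve as a label of origin as well as a set of regulators. Head mesenchyme in front of the second branchial arch uses no Hox gene.

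Members were all genes on the array whose symbol is Hoxa, Hoxb, Hoxc or Hoxd followed by a number only. There were 38 such genes, and 10160 genes of all kinds were tested. There were 10 members each in clusters A and B, and 9 members each in clusters C and D.

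RNA was measured on 1-colour Illumina bead arrays in 2 Rnaseh2b-/- and 4 Rnaseh2b+/+ lines of mouse embryonic fibroblasts (MEFs). The Rnaseh2b-/- lines carried a null allele of the B subunit of RNase H2, the enzyme that removes ribonucleotides from DNA, in which exon 5 was excised. All 6 lines were p53-/- on a C57BL/6J background. Each was derived from 1 whole embryo at E10.5, kept in 3% O2 and matched for passage, and RNA was taken 20 h after a change of medium. The study chose the 2 Rnaseh2b-/- lines from a larger set for a stronger interferon-stimulated gene response, and 1 line stands for 1 embryo, so genotype cannot be told apart from other differences between single embryos where only 2 lines carry it. The study set out to find which transcripts respond to loss of RNase H2, and the Hox genes were no stated aim of it.

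On each array 15519 to 16114 probes exceeded background (detection p under 0.01). Values are log2 intensities after background correction and quantile normalisation, and adjusted p-values are over all genes tested. Rnaseh2b was 5.43 and 5.53 in Rnaseh2b-/- lines, against 9.81, 9.17, 9.48 and 9.50 in Rnaseh2b+/+ lines, a log2 difference of -4.01 (limma, adjusted p = 0.00121). Of 12 fibroblast markers all 12 were tested, with 9 negative differences, a median of -0.32, 2 genes above and 3 below all controls. Over all genes 52.6% of differences were negative, 12.5% of genes lay above and 15.1% below all controls. Dcn (decorin, a collagen-binding proteoglycan) was the 1 fibroblast marker that passed, as higher (adjusted p = 0.0459). Rnaseh2b-/- replicate 1 stood apart from the others: its correlation with the 4 Rnaseh2b+/+ lines over all tested genes was 0.928 to 0.950, against 0.958 to 0.973 for Rnaseh2b-/- replicate 2. Among the controls, Rnaseh2b+/+ replicate 1 correlated with the other 3 at 0.967 to 0.975, and those 3 with each other at 0.985 to 0.988.

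A Hox pattern of the trunk was present in every line. 22 of the 38 members exceeded background in 1 line or more and were tested, 10 of them in all 6 lines (Hoxa2, Hoxa5, Hoxa7, Hoxb2, Hoxb4, Hoxb5, Hoxb6, Hoxb7, Hoxc6 and Hoxd8). The other 12 tested members were above background in 1 to 5 lines. In no line were Hoxa3, Hoxa6, Hoxa10, Hoxb1, Hoxb8, Hoxb13, Hoxc5, Hoxc8, Hoxc11, Hoxc12, Hoxc13, Hoxd1, Hoxd3, Hoxd11, Hoxd12 and Hoxd13 above background, which at this signal is a limit of detection and not a measured absence. Rnaseh2b-/- replicates 1 and 2 had 14 and 18 Hox genes above background, and Rnaseh2b+/+ replicates 1 to 4 had 20, 18, 14 and 13. The number of Hox genes detected therefore overlapped between the groups.

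No Hox gene passed the adjusted threshold in either direction, where 0.354% of all 10160 genes were higher and 0.157% were lower in Rnaseh2b-/- lines. At an unadjusted p under 0.05, 8 of the 22 tested Hox genes were higher and 0 were lower, against 7.99% and 9.13% of all genes. The same 8 genes (Hoxa2, Hoxa5, Hoxa7, Hoxb2, Hoxb6, Hoxb7, Hoxc6 and Hoxc9) had both Rnaseh2b-/- lines above all 4 Rnaseh2b+/+ lines, a pattern shown by 12.5% of all genes. None had both Rnaseh2b-/- lines below all 4 Rnaseh2b+/+ lines, against 15.1% of all genes. A gene that is above background in 1 group only enters the test because that group is high, so the 10 Hox genes above background in all 6 lines were also counted alone. Of these, 7 lay above all Rnaseh2b+/+ lines and their median log2 difference was 1.57, against 11.7% and a median of -0.03 for the 8215 genes above background in all 6 lines. For 1 gene, the smallest one-sided p that exact permutation of 2 and 4 lines allows is 0.0667.

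**Figure D1:**
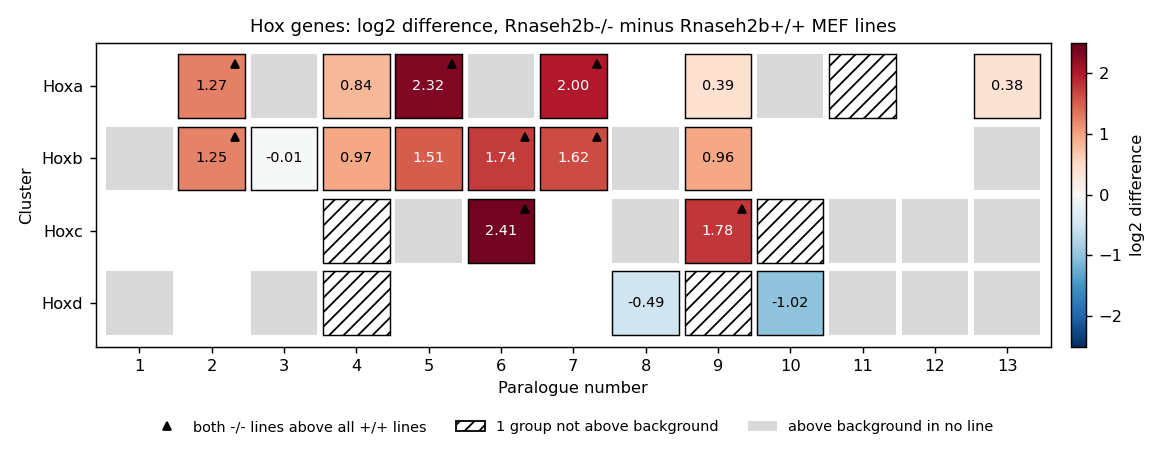
Log2 difference (Rnaseh2b-/- minus Rnaseh2b+/+, colour and printed number) of each Hox gene by cluster (rows) and paralogue number (columns). Hatched genes were not above background on any array of 1 group and have no printed difference, and grey genes were above background in no line. Triangles mark the 8 genes with both Rnaseh2b-/- lines above all 4 Rnaseh2b+/+ lines. Of these, 5 are among the 11 tested genes with a paralogue number from 4 to 8.

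Hoxc6, active in the thoracic region, was the member with the smallest p. Its log2 intensity was 11.77 and 11.76 in Rnaseh2b-/- lines, against 9.93, 9.96, 9.36 and 8.16 in Rnaseh2b+/+ lines. The Rnaseh2b-/- lines were nearly equal and both lay above every control. The mean was 11.77 ± 0.0019 (SD, n = 2) in Rnaseh2b-/- lines and 9.35 ± 0.84 (SD, n = 4) in Rnaseh2b+/+ lines, a 5.32-fold difference (limma, log2 2.41, SE 0.49, adjusted p = 0.0889). In cultures of this kind, fewer cells using a gene and less of its RNA per cell cannot be told apart.

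Its paralogue Hoxb6 showed the same order of the groups. Hoxb6 log2 intensity was 8.11 and 8.37 in Rnaseh2b-/- lines, against 7.85, 6.66, 5.70 and 5.78 in Rnaseh2b+/+ lines, a log2 difference of 1.74 (SE 0.58, adjusted p = 0.215). Here Rnaseh2b+/+ replicate 1 came within 0.26 of the lower Rnaseh2b-/- line, whereas the other 3 controls were well below it.

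Hoxa7 and Hoxb7 pattern thoracic segments. Hoxa7 was 9.94 and 10.10 in Rnaseh2b-/- lines, against 8.93, 8.42, 7.595 and 7.15 in Rnaseh2b+/+ lines, and the log2 difference was 2.00 (SE 0.47, adjusted p = 0.120). Hoxb7, measured by 2 probes, was 10.73 and 10.70 in Rnaseh2b-/- lines, against 10.34, 9.19, 8.39 and 8.46 in Rnaseh2b+/+ lines. Its log2 difference was 1.62 (SE 0.52, adjusted p = 0.205). In both genes the Rnaseh2b-/- lines differed from each other by less than the controls did, and Rnaseh2b+/+ replicate 1 was the highest control.

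Hoxa5 and Hoxb5 act at the border of neck and thorax, and Hoxa5 is also needed for lung development. Hoxa5 was 10.92 and 11.83 in Rnaseh2b-/- lines, against 10.37, 9.54, 7.82 and 8.51 in Rnaseh2b+/+ lines, a 4.98-fold difference (log2 2.32, SE 0.68, adjusted p = 0.175). The lower Rnaseh2b-/- line exceeded the highest control by 0.55. Hoxb5 was 9.04 and 10.22 in Rnaseh2b-/- lines, against 9.46, 8.35, 7.08 and 7.58 in Rnaseh2b+/+ lines. The groups overlapped for Hoxb5 because Rnaseh2b+/+ replicate 1 lay above Rnaseh2b-/- replicate 1, and the log2 difference was 1.51 (SE 0.66, adjusted p = 0.300). The 6 tested genes of paralogue groups 5 to 7 thus had log2 differences of 1.51 to 2.41, with 5 of 6 above all controls. This range was not planned and so gives no separate support. In the planned central band, groups 4 to 8, 5 of 11 tested genes lay above all controls, against 12.5% of all genes.

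Hoxa2 and Hoxb2 mark the hindbrain and the arches below it, and Hoxa2 sets the identity of the second branchial arch. Hoxa2, averaged over 2 probes, was 7.996 and 8.61 in Rnaseh2b-/- lines, against 7.94, 7.16, 6.15 and 6.89 in Rnaseh2b+/+ lines (log2 1.27, SE 0.46, adjusted p = 0.236). Hoxb2 was 9.002 and 8.91 in Rnaseh2b-/- lines, against 8.81, 7.65, 6.83 and 7.55 in Rnaseh2b+/+ lines (log2 1.25, SE 0.48, adjusted p = 0.259). For both, the groups did not overlap, but the gap between the lower Rnaseh2b-/- line and Rnaseh2b+/+ replicate 1 was only 0.06 for Hoxa2 and 0.10 for Hoxb2. Hoxb3, the 1 tested gene of group 3, was 5.14 and 5.37 in Rnaseh2b-/- lines, against 5.78, 5.46, 4.92 and 4.92 in Rnaseh2b+/+ lines, and was above background in Rnaseh2b-/- replicate 2 and Rnaseh2b+/+ replicates 1 and 2. Its log2 difference of -0.01 (SE 0.27, adjusted p = 0.983) was far within the spread of the controls, and its sign turned in 6 of 16 alternatives.

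The group 4 paralogues, which pattern cervical vertebrae, had no common order of the lines. Hoxa4 was 6.65 and 6.86 in Rnaseh2b-/- lines, against 7.12, 5.22, 5.54 and 5.79 in Rnaseh2b+/+ lines (log2 0.84, SE 0.49, adjusted p = 0.413). Hoxb4 was 8.61 and 9.47 in Rnaseh2b-/- lines, against 9.04, 8.78, 6.83 and 7.64 in Rnaseh2b+/+ lines (log2 0.97, SE 0.63, adjusted p = 0.460). Both overlapped, since Rnaseh2b+/+ replicate 1 lay above both Rnaseh2b-/- lines for Hoxa4 and between them for Hoxb4. Hoxa4 was not above background in Rnaseh2b+/+ replicates 2 and 3. Hoxc4 was above background in Rnaseh2b-/- replicate 2 alone, at 5.84, and was 5.14 in Rnaseh2b-/- replicate 1, against 5.21, 5.01, 4.94 and 5.52 in Rnaseh2b+/+ lines. Hoxd4 stood on the other side and is given with its cluster.

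Of the group 9 genes, which act from the lower thorax to the loin, Hoxc9 separated the groups. Hoxc9 was 8.96 and 7.10 in Rnaseh2b-/- lines, against 6.75, 6.78, 6.37 and 5.12 in Rnaseh2b+/+ lines, and was not above background in Rnaseh2b+/+ replicate 4. The log2 difference was 1.78 (SE 0.63, adjusted p = 0.231), and it was 0.85 without Rnaseh2b-/- replicate 1 and 2.72 without Rnaseh2b-/- replicate 2. Its size thus rested on which Rnaseh2b-/- line was used. Hoxb9 was 7.54 and 6.57 in Rnaseh2b-/- lines, against 7.003, 6.22, 5.67 and 5.45 in Rnaseh2b+/+ lines (log2 0.96, SE 0.46, adjusted p = 0.334), not above background in Rnaseh2b+/+ replicate 4. Hoxa9 was near the detection limit, at 5.48 and 5.96 in Rnaseh2b-/- lines, against 5.63, 5.62, 4.85 and 5.21 in Rnaseh2b+/+ lines (log2 0.39, SE 0.26, adjusted p = 0.481). It was above background in Rnaseh2b-/- replicate 2 and Rnaseh2b+/+ replicates 1 and 2, and for Hoxb9 and Hoxa9 alike the groups overlapped.

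The most posterior members were faint and showed no separation. Hoxc10, a lumbar gene, was 5.26 and 4.90 in Rnaseh2b-/- lines, both not above background, against 5.56, 5.64, 5.84 and 5.19 in Rnaseh2b+/+ lines, of which replicates 1 to 3 were above background. Hoxa11, a gene of the forearm and kidney, was above background in Rnaseh2b+/+ replicate 1 alone, with 5.06 and 4.65 in Rnaseh2b-/- lines, against 6.33, 4.79, 4.75 and 4.60 in Rnaseh2b+/+ lines. Hoxa13, which shapes hands, feet and the genital tract, was 6.13 and 5.94 in Rnaseh2b-/- lines, against 5.14, 5.69, 5.98 and 5.81 in Rnaseh2b+/+ lines, from 1 of its 3 probes. It was the reverse case to the others, since Rnaseh2b+/+ replicate 1 was the lowest line and the only one not above background (log2 0.38, SE 0.24, adjusted p = 0.452). Of the 16 members numbered 9 to 13, 8 were tested and 1, Hoxc9, lay above all controls. That is 12.5%, the same share as over all genes.

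**Figure D2:**
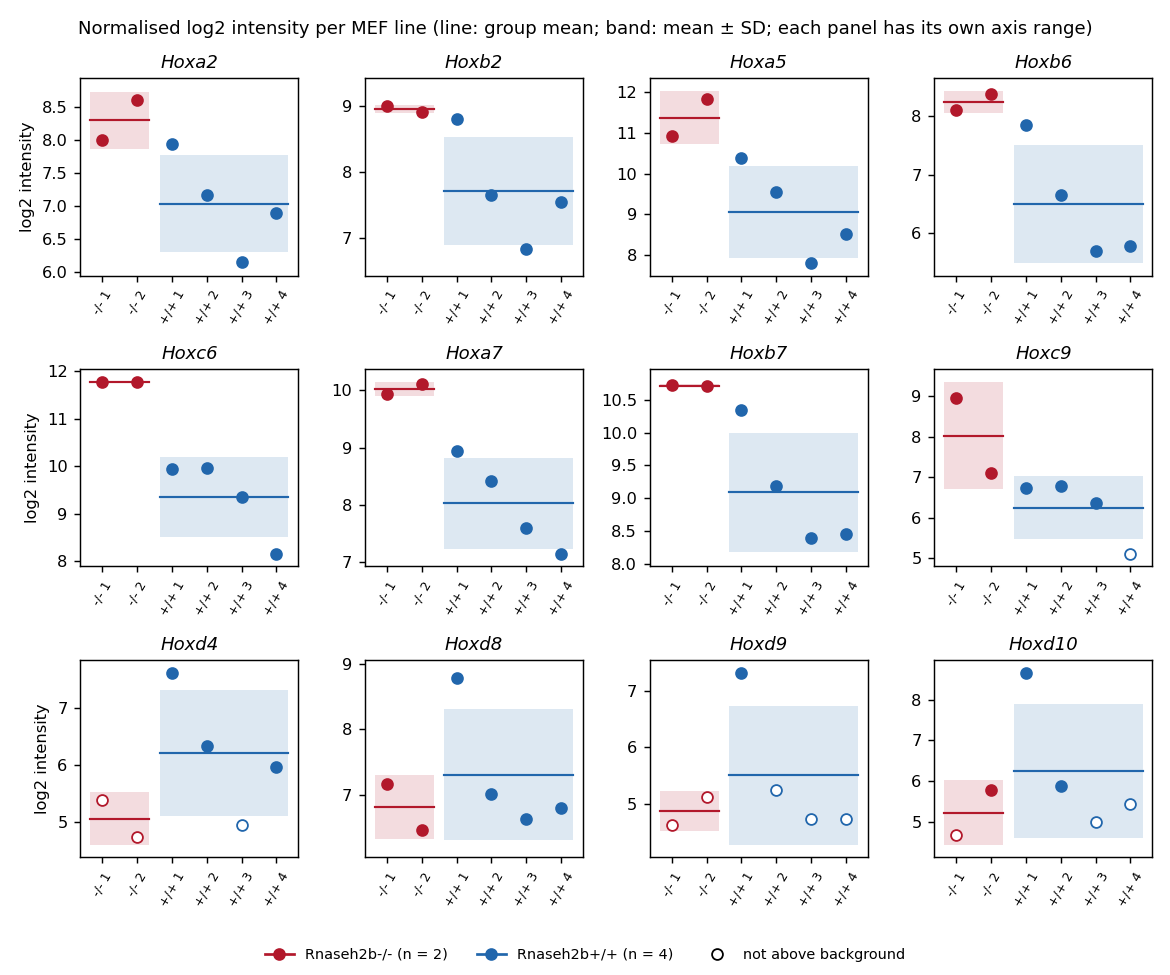
Normalised log2 intensity per MEF line (y axis, own range in each panel) for the 8 Hox genes with both Rnaseh2b-/- lines above all Rnaseh2b+/+ lines and the 4 tested Hoxd genes. Points are lines, horizontal lines are group means, bands are ± SD and open points were not above background; Rnaseh2b+/+ replicate 1 is the highest of all 6 lines in each of the 4 Hoxd panels, at 7.61 for Hoxd4.

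The Hoxd genes showed another order of the lines. Hoxd genes act in the trunk and, together with Hoxa genes, in the limb bud. Hoxd4 was 5.39 and 4.74 in Rnaseh2b-/- lines, both not above background, against 7.61, 6.34, 4.95 and 5.96 in Rnaseh2b+/+ lines, of which replicate 3 was not above background. Set against the dimmest detectable signal of the Rnaseh2b-/- arrays, the group mean of Hoxd4 was at least 1.57-fold lower in Rnaseh2b-/- lines (adjusted p = 0.399). The groups overlapped, since Rnaseh2b+/+ replicate 3 lay between the Rnaseh2b-/- lines. Hoxd8, the 1 Hoxd gene above background in every line, was 7.17 and 6.47 in Rnaseh2b-/- lines, against 8.78, 7.02, 6.64 and 6.81 in Rnaseh2b+/+ lines (log2 -0.49, SE 0.59, adjusted p = 0.700). For Hoxd8 the Rnaseh2b-/- lines lay among Rnaseh2b+/+ replicates 2 to 4 or close to them, and only Rnaseh2b+/+ replicate 1 was clearly higher.

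Hoxd9 was above background in Rnaseh2b+/+ replicate 1 alone, at 4.63 and 5.13 in Rnaseh2b-/- lines, against 7.31, 5.24, 4.74 and 4.74 in Rnaseh2b+/+ lines, and its 2 probes gave the same picture. Hoxd10, needed for motor neurons and the limb, was 4.67 and 5.78 in Rnaseh2b-/- lines, against 8.65, 5.88, 5.00 and 5.44 in Rnaseh2b+/+ lines (log2 -1.02, SE 0.97, adjusted p = 0.616). It was above background in Rnaseh2b-/- replicate 2 and Rnaseh2b+/+ replicates 1 and 2. None of the 4 tested Hoxd genes separated the groups, and without Rnaseh2b+/+ replicate 1 the log2 difference was 0.00 for Hoxd8 and -0.21 for Hoxd10, and Hoxd4 was at least 1.13-fold lower. The median log2 difference was 0.84 in cluster A (7 tested), 1.25 in cluster B (7 tested) and 1.05 in cluster C (4 tested; 0.89 with Hoxc4 and Hoxc10, which 1 group left at background, set to no difference). Over the 17 members above background in both groups, 14 differences were positive and 3, those of Hoxb3, Hoxd8 and Hoxd10, were negative. Whether cluster D differs from the other clusters was not tested.

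The bases just before the start site are shown for genes from either side of this split, Hoxa2 and Hoxa5 from cluster A and Hoxd4 and Hoxd10 from cluster D. They are the 120 bases upstream of the RefSeq start (GRCm38.p6), written 5′ to 3′ on the strand of the gene. Capitals mark matches, on either strand, to the motifs searched. Hoxa2 is at chr6:52164832-52164951 and Hoxa5 at chr6:52204588-52204707, both on the minus strand. Hoxd4 is at chr2:74721858-74721977 and Hoxd10 at chr2:74691771-74691890, both on the plus strand.
Hoxa2: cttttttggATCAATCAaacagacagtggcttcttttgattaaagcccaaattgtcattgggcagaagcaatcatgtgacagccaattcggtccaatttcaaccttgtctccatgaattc
Hoxa5: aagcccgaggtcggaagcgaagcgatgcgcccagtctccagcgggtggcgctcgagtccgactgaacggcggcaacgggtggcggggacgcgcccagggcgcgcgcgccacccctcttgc
Hoxd4: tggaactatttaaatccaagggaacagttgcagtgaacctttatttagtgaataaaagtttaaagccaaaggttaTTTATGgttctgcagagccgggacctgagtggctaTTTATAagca
Hoxd10: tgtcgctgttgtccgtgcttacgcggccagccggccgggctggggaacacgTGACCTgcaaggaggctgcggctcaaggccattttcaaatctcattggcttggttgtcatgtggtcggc

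The Hoxa2 window held a match to TGATTNAT, the letters of a joint Pbx and Hox site, and the Hoxa5 window held none of the motifs. The Hoxd4 window held TTTATG, the letters bound by Cdx factors, and TATAAA, the TATA box. The Hoxd10 window held AGGTCA, a nuclear receptor half-site. Windows of 250 bases, 24 in number, were found for 22 Hox genes, of which only 12 were among the tested members. TGATTNAT was in 8.33% of these windows, TTTATG in 20.8%, AGGTCA in 25%, TATAAA in 16.7% and TAATTA, a homeodomain core, in 8.33%. Over all 32851 promoter windows of that length these shares were 2.825%, 10.8%, 14.02%, 12.4% and 4.84%, in the same order. Both Hox windows with TAATTA and 1 of the 2 with TGATTNAT were of Hoxd11, which was above background in no line. Matches were counted for each motif alone, also where motifs could share bases. They describe letters and not binding.

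The controls differed among themselves in Hox level. Rnaseh2b+/+ replicate 1 was the highest of the 4 controls in 17 of 22 Hox genes (77.3%), against 32.7% of all genes. Replicates 3 and 4 were the lowest control in 12 and 8 Hox genes. For clusters A to C, the mean log2 deviation from the controls was 1.01 and 1.10 in Rnaseh2b-/- replicates 1 and 2. Each set against the other 3 controls, Rnaseh2b+/+ replicates 1 to 4 deviated by 1.03, 0.21, -0.64 and -0.59. Against Rnaseh2b+/+ replicates 2 to 4 alone, the deviation was 1.27 and 1.36 in Rnaseh2b-/- lines, and 1.03 in Rnaseh2b+/+ replicate 1. For cluster D the means, from all 4 or the other 3 controls as above, were -0.86 and -0.79 in Rnaseh2b-/- lines, against 2.36, -0.27, -1.32 and -0.78 in Rnaseh2b+/+ lines.

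**Figure D3:**
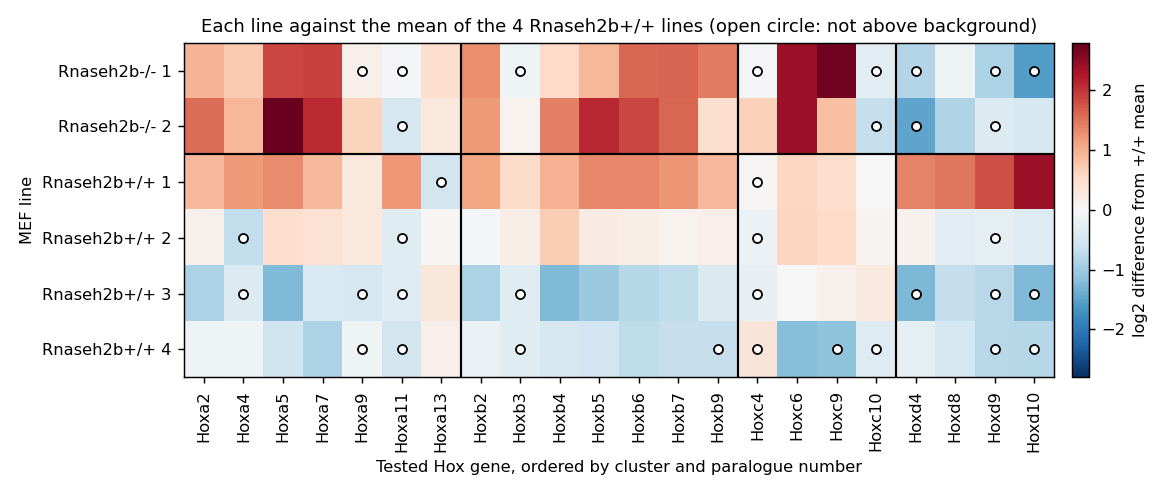
Log2 difference of each MEF line (rows) from the mean of the 4 Rnaseh2b+/+ lines for the 22 tested Hox genes (columns, by cluster and paralogue number); open circles were not above background. The 3 highest lines are both Rnaseh2b-/- lines and Rnaseh2b+/+ replicate 1 in 9 genes of clusters A and B, but not in Hoxa9, Hoxa11, Hoxa13, Hoxb3 and Hoxb4, and Rnaseh2b+/+ replicate 1 alone is high across cluster D.

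In 9 of the 22 genes (Hoxa2, Hoxa4, Hoxa5, Hoxa7, Hoxb2, Hoxb5, Hoxb6, Hoxb7 and Hoxb9) the 3 highest lines were both Rnaseh2b-/- lines and Rnaseh2b+/+ replicate 1. The share of all genes with this order was not counted, so it cannot be called particular to Hox genes. Over all tested genes, Rnaseh2b+/+ replicate 1 was also the control that correlated best with Rnaseh2b-/- replicates 1 and 2 (0.950 and 0.973). The adjusted results turned on that control. Without Rnaseh2b+/+ replicate 1, 5 Hox genes passed the adjusted threshold, namely Hoxb7 (log2 2.04, adjusted p = 0.0287), Hoxb6 (2.19, adjusted p = 0.0327), Hoxa7 (2.31, adjusted p = 0.0426), Hoxa4 (1.23, adjusted p = 0.0446) and Hoxb2 (1.61, adjusted p = 0.0463). In that setting 121 of all 10064 genes were higher, against 36 with all 6 lines. Rnaseh2b+/+ replicate 1 was the highest control for each of these 5 Hox genes. Leaving out that control widens their differences by itself, so the smaller p-values are no separate support. With any other single line left out, no Hox gene passed.

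**Figure D4:**
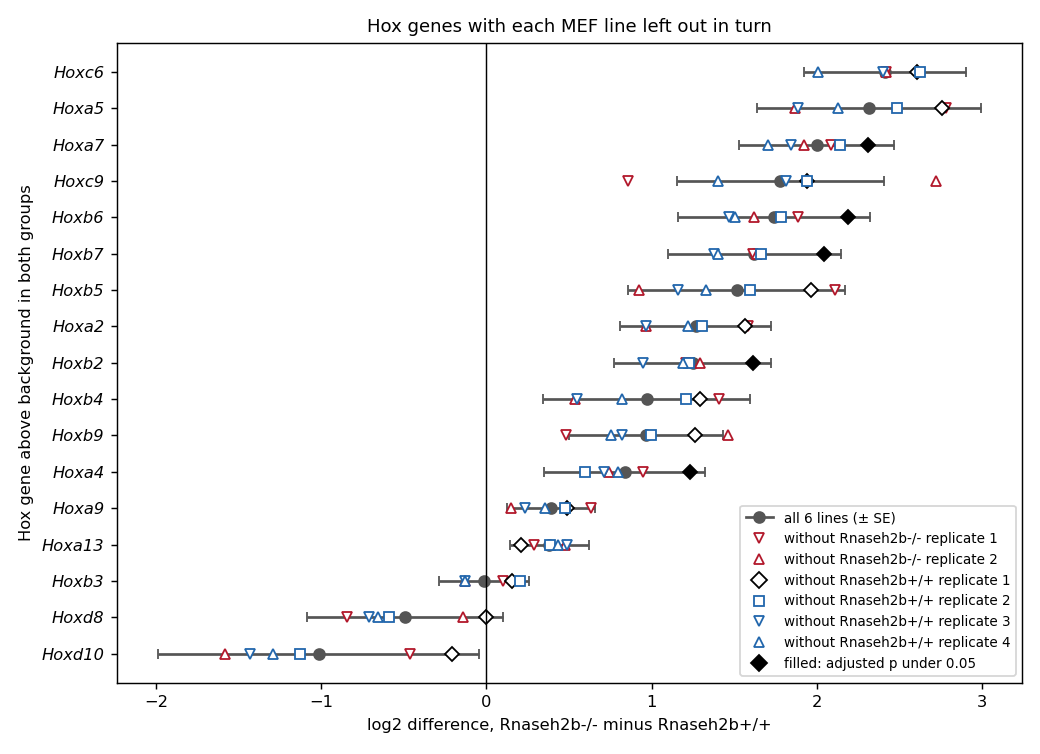
Log2 difference (x axis) of the 17 Hox genes above background in both groups, with all 6 lines (grey, ± SE) and with each line left out in turn (symbols). Filled symbols have an adjusted p under 0.05, which only Hoxa4, Hoxa7, Hoxb2, Hoxb6 and Hoxb7 reach, all without Rnaseh2b+/+ replicate 1. Leaving out that control, the highest for each of these genes, widens their differences by itself.

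Hox proteins bind DNA with cofactors of the TALE class (Pbx, Meis and Pknox). Of 9 such genes 7 were tested, with log2 differences of -0.46 to 0.42, and none passed. The largest difference was that of Meis3 (-0.46, SE 0.23, adjusted p = 0.342), and that of Pknox1 was 0.42 (SE 0.15, adjusted p = 0.229). Polycomb proteins keep Hox clusters silent, and none of 25 tested genes passed, with differences of -0.29 to 0.31. Trithorax proteins and H3K27 demethylases keep Hox clusters open, and none of 13 tested genes passed, with differences of -0.21 to 0.69. Of these 13, 9 differences were positive and 4 negative. Above all controls lay 3 of the 13 and below them 0, against 12.5% and 15.1% of all genes. Of 3 non-coding RNAs of the Hox clusters with a probe, none was above background.

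Signals that set Hox genes in the embryo were mostly not above background (5 of 13 genes with a probe were tested). Rarb, a retinoic acid receptor, was 7.31 and 7.87 in Rnaseh2b-/- lines, against 6.32, 6.90, 5.98 and 6.29 in Rnaseh2b+/+ lines (log2 1.21, SE 0.28, adjusted p = 0.114). Wnt5a, a signal for outgrowth of trunk and limb, was 7.16 and 7.63 in Rnaseh2b-/- lines, against 7.98, 8.77, 9.18 and 8.24 in Rnaseh2b+/+ lines (log2 -1.15, SE 0.34, adjusted p = 0.180). Neither gene overlapped between the groups and neither passed. Rnaseh2b+/+ replicate 1 was not the highest control for Rarb.

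The 10 tested genes next to each Hox cluster, 5 on either side, were read for the same shift. Of these 40 neighbours none passed, 6 lay above and 3 below all controls (12.5% and 15.1% of all genes), and the median log2 difference was 0.07. Tril, on the Hoxa side, had the smallest p (log2 1.596, SE 0.31, adjusted p = 0.0815). The median was 0.06 beside cluster A, -0.05 beside cluster B, 0.27 beside cluster C, where all 10 differences were positive and 3 genes lay above all controls, and -0.04 beside cluster D. Skap2, beside cluster A, also lay above all controls (log2 0.88, SE 0.33, adjusted p = 0.247).

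Genes of the head, limb and somites had mostly negative differences. Of 12 tested genes of the head and branchial arches, 10 had negative differences and 3 lay below all controls, and none passed. 52.6% of all genes had a negative difference and 15.1% lay below all controls. 5 of the 12, among them the 3 below all controls, were not above background in any Rnaseh2b-/- line and entered the test through the controls. Of the 6 genes above background in both groups 5 were negative and 0 lay below all controls. Tfap2b, a neural crest factor of the face, was 4.50 and 4.58 in Rnaseh2b-/- lines, against 4.58, 8.95, 8.69 and 9.12 in Rnaseh2b+/+ lines. It was not above background in Rnaseh2b-/- lines or in Rnaseh2b+/+ replicate 1, and at least 4.83-fold lower in Rnaseh2b-/- lines (adjusted p = 0.247). Without Rnaseh2b+/+ replicate 1 it was at least 10.2-fold lower (adjusted p = 0.00115). Six2, a factor of head and kidney mesenchyme, was 4.48 and 4.78 in Rnaseh2b-/- lines, against 5.16, 6.37, 6.96 and 6.30 in Rnaseh2b+/+ lines, at least 1.55-fold lower (adjusted p = 0.165), and at least 1.97-fold without Rnaseh2b+/+ replicate 1 (adjusted p = 0.0269). In both genes Rnaseh2b+/+ replicate 1 was on the side of the Rnaseh2b-/- lines. Leaving out that control widens both differences by itself, so the smaller p-values are no separate support.

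Alx4 is a factor of the front edge of the limb bud and of the skull. It was 4.66 and 4.53 in Rnaseh2b-/- lines, neither above background, against 6.57, 9.29, 9.85 and 9.17 in Rnaseh2b+/+ lines. It entered the test through the controls and was at least 8.91-fold lower in Rnaseh2b-/- lines (adjusted p = 0.0888). Without Rnaseh2b+/+ replicate 1, which lay between the Rnaseh2b-/- lines and the other controls, Alx4 was at least 14.6-fold lower (adjusted p = 0.00242). Leaving out that control widens the difference by itself, so the smaller p is no separate support. Of 13 tested limb genes 10 had negative differences, 3 lay below all controls (15.1% of all genes) and none passed. Of the 11 above background in both groups, which leave out Alx4, 9 were negative and 2 lay below all controls. Grem1, an inhibitor of BMP signals in the limb bud, was 10.94 and 11.41 in Rnaseh2b-/- lines, against 11.99, 12.21, 11.94 and 12.25 in Rnaseh2b+/+ lines (log2 -0.92, SE 0.18, adjusted p = 0.0815).

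All 7 tested genes of somites and trunk mesoderm had negative differences, with 4 below all controls (15.1% of all genes) and none past the threshold. 3 of the 7 were not above background in any Rnaseh2b-/- line and entered the test through the controls, and 2 of these 3 genes lay below all controls. The other 4 were negative, 2 of them below all controls. Foxc2, a factor of somites and vessels, was 8.52 and 8.20 in Rnaseh2b-/- lines, against 9.11, 9.73, 9.03 and 9.28 in Rnaseh2b+/+ lines (log2 -0.93, SE 0.22, adjusted p = 0.122). Tbx18, which keeps the front part of each somite, was 6.10 and 5.66 in Rnaseh2b-/- lines, against 6.48, 7.72, 6.97 and 7.57 in Rnaseh2b+/+ lines (log2 -1.31, SE 0.36, adjusted p = 0.157). For Foxc2 and Tbx18 the groups did not overlap.

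Genes of the lateral plate, gut and heart mesoderm included those with the smallest adjusted p of the regional lists. Isl1, a factor of the second heart field and hindlimb, was 6.61 and 5.54 in Rnaseh2b-/- lines, against 4.47, 4.56, 4.47 and 4.54 in Rnaseh2b+/+ lines, and was above background in Rnaseh2b-/- replicate 1 alone (at least 1.42-fold higher, adjusted p = 0.0736). Nkx2-3, a factor of gut mesoderm and spleen, was 5.93 and 7.01 in Rnaseh2b-/- lines, both above background, against 4.82, 4.72, 5.15 and 4.95 in Rnaseh2b+/+ lines, none above background (at least 1.88-fold higher, adjusted p = 0.0776). Gata6, a factor of heart and gut, was 10.99 and 10.91 in Rnaseh2b-/- lines, against 10.32, 9.27, 7.74 and 8.70 in Rnaseh2b+/+ lines (log2 1.94, SE 0.62, adjusted p = 0.202). The order of the 4 controls for Gata6 was the same as for Hoxa5. Osr2 was 5.98 and 8.63 in Rnaseh2b-/- lines, against 7.62, 11.46, 9.29 and 10.71 in Rnaseh2b+/+ lines, and overlapped (log2 -2.46, SE 1.14, adjusted p = 0.317). Of 6 tested genes 3 lay above all controls (12.5% of all genes), 0 below, and none passed. Isl1, Nkx2-3 and 1 other of the 6 were not above background in any control and entered the test through the Rnaseh2b-/- lines. Of the other 3, Gata6 lay above all controls.

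**Figure D5:**
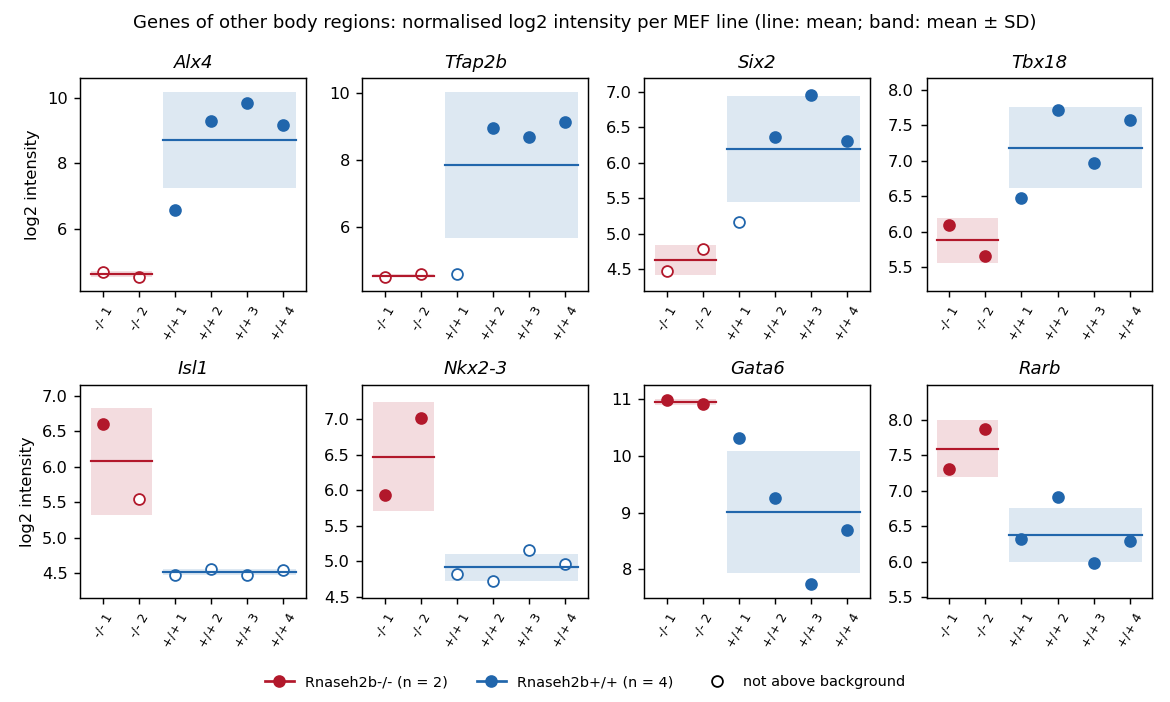
Normalised log2 intensity per MEF line (y axis, own range in each panel) of 8 genes from the limb, head, somite, lateral plate and upstream lists, with group means and ± SD bands; open points were not above background. Alx4, Tfap2b and Six2 are low in both Rnaseh2b-/- lines and lower in Rnaseh2b+/+ replicate 1 than in Rnaseh2b+/+ replicates 2 to 4.

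Among other cell types, muscle and epithelial markers had their highest mean deviations in the Rnaseh2b-/- lines. For 11 tested muscle markers the mean log2 deviation was 4.80 and 0.90 in Rnaseh2b-/- replicates 1 and 2, against 0.82, 0.25, -0.60 and -0.47 in Rnaseh2b+/+ replicates 1 to 4. Above all controls lay 9 of 11 (7 of the 9 above background in both groups), against 12.5% of all genes. Myf5, Myf6, Myh6, Myh7 and Ckm were above background in no line. For 8 tested epithelial markers the mean log2 deviation was 2.60 and 1.60 in Rnaseh2b-/- lines, against 0.52, 0.22, -0.63 and -0.12 in Rnaseh2b+/+ lines. Above all controls lay 6 of 8 (12.5% of all genes). Epcam, Cldn6, Spint2 and Esrp1 were above background in no line. Head and branchial arch genes had -0.78 and -0.90 in Rnaseh2b-/- lines, against -0.76, 0.34, 0.15 and 0.26 in Rnaseh2b+/+ lines. Myl7, an atrial light chain, was the muscle marker that passed (at least 2.89-fold higher, adjusted p = 0.00954), and Tspan8 the epithelial marker (log2 3.91, SE 0.52, adjusted p = 0.0400). Myl7 was not above background in any control and entered the test through the Rnaseh2b-/- lines. The 4 tested neural genes had a median log2 difference of 0.46 and none passed. Their mean deviation was 0.60 and -0.13 in Rnaseh2b-/- replicates 1 and 2, and -0.05 in Rnaseh2b+/+ replicate 1. In the same lines it was -0.14, 0.33 and -0.15 for 3 tested endothelial markers. For 2 tested markers of blood and macrophages it was -0.17, -0.13 and 1.03. The part of these cell types in the Hox values was not tested.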

How the data were processed

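RNA of 6 MEF lines was hybridised to MouseWG-6 v2 BeadChips, 1 array per line. The authors deposited bead-summary intensity values, neither background-corrected nor normalised, with a detection p-value per probe and array, and a table of log2 values that they had corrected and quantile-normalised with neqc. No column of the authors' own comparisons was used. As in the study's methods, intensities were corrected and normalised with neqc (offset 16) in limma 3.58.1 under R 4.3.3. The resulting log2 values differed from the deposited log2 values by at most 0.109. Probes with a detection p-value under 0.01 on no array were left out, and the remaining probes of a gene were averaged. Probe symbols came from the platform annotation and were updated by gene number through RefSeq. 34885 of 45281 probes had 1 symbol, 18 had several and 10378 had none, and only those with 1 were named.

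A linear model with 2 groups and eBayes was fitted to all 10160 genes, with Benjamini-Hochberg adjustment over all of them and a threshold of 0.05. Adjusted p-values in the text are from this limma fit unless a setting is named. Arrays hold no read depth, and their number limits the precision. The replicates are lines from separate embryos. Where every array of a group left a gene at background, its difference is given as a bound. The bound is the mean of the bright group against the higher of each array's dimmest detected signal and the gene's own value. Deviations of a line are from the mean of the controls, for a control from that of the other 3.

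The members and the other gene lists were chosen with earlier results of these data known. Values in every line are given for Hox genes past the threshold, outside all controls by a log2 difference of at least 1, among the 3 smallest p of a cluster, or detected in only some lines, and up to 4 genes by p from each other list. Hoxb4, Hoxb5, Hoxd8, Skap2, Tril and the other neighbours were added after their values were seen. Gene-wide scripts were tested on simulated data. Alternatives covered the filter, normalisation, background correction, probe averaging, variance model, a block for the replicate number, and leaving out single lines. The same-numbered lines of the 2 groups deviated with correlations of 0.0959 and 0.0611, so the number was not taken to pair them. Batches were not given in the sources used here. Probe sequences and protein sequences were not used here.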

Additional observations from a re-analysis of the deposited data

Results flagged for a closer look

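2 of 60 genes examined had a sample far from the other 3 Rnaseh2b+/+ lines by Dixon's measure, the gap to the nearest line over the whole range, past the limit used for groups of 4. Chance alone flags about 1 in 20, that is 3 of 60. Hoxa11 in Rnaseh2b+/+ replicate 1 was far above the other controls (gap ratio 0.893), at 6.33 against 4.79, 4.75 and 4.60. Tfap2b in the same line was far below the other controls (gap ratio 0.905), at 4.58 against 8.95, 8.69 and 9.12.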

How the results depend on the processing

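No Hox gene passed the adjusted threshold in 16 of 17 alternatives. Leaving out each line in turn gave 0 to 5 Hox genes higher and 0 lower at the adjusted threshold, 4 to 11 higher and 0 to 1 lower at an unadjusted p under 0.05, and 8 to 12 above and 0 to 3 below all Rnaseh2b+/+ lines. The 12 came without Rnaseh2b-/- replicate 1, where 1 line alone has to exceed the controls and 23.7% of all genes did so. The 5 were obtained without Rnaseh2b+/+ replicate 1, and the 4 without Rnaseh2b-/- replicate 2. With the replicate block, which pairs lines by a number they only share, the unadjusted counts were 4 higher and 2 lower, and none passed. Rnaseh2b then had a log2 difference of -4.01 with an adjusted p of 0.156. With no filter on detection, 1 Hox gene was lower at an unadjusted p under 0.05 and 1 lay below all controls. The median log2 difference of all genes was -0.16 with scaling by the median, against 0.78 for the Hox genes.

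Of 363 values of single Hox genes under the alternatives, 355 kept their direction. Hoxb3 turned positive with array weights (0.14), the brightest probe (0.22), no filter (0.089), and without Rnaseh2b+/+ replicate 1, Rnaseh2b+/+ replicate 2 or Rnaseh2b-/- replicate 1 (-0.13 to 0.20 over all lines left out). Hoxa11 turned with array weights (0.0098) and Hoxd8 without Rnaseh2b+/+ replicate 1 (-0.85 to 0.00015). Without Rnaseh2b-/- replicate 2, Cdx1 (-0.37 to 0.019), Meox1 (-0.61 to 0.28) and Pknox2 (-1.18 to 0.67) turned positive, and Meox1 also did with the replicate block (0.13). The causes were not tested. Without Rnaseh2b+/+ replicate 1, Alx4, Tfap2b, Six2 and Pax3 passed as lower, none of them above background in any Rnaseh2b-/- line. With 1 Rnaseh2b-/- line left, the spread comes from the controls alone and the lone line is assumed to vary like them. In those fits, without Rnaseh2b-/- replicate 2, Isl1 passed as higher and Grem1 and Prrx1 as lower, and without Rnaseh2b-/- replicate 1 Nkx2-3 passed as higher. Grem1 also passed with the variance trend. With all genes, 36 higher and 16 lower calls stood against 0 to 293 higher and 1 to 112 lower with a line left out. Signal over background limits 12 Hox genes, which some arrays did not detect.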
